A study of Mus musculus with 18 samples.

Results

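Regulatory T (Treg) cells that overexpressed miR-27 (miR-27 Tg) were compared with Treg cells that overexpressed miR-23 (miR-23 Tg), with 3 RNA-seq libraries of each. The 6 libraries are all those of these genotypes among the 18 of the series. Genes were included when they reached at least 1 RPKM (reads per kilobase of transcript, scaled to library size) in at least 3 of the 18 libraries, which 11520 of 23953 entries did. At that limit, the third highest value of Nr6a1 was 1.002 RPKM, and that of Ccdc85c, which was not tested, was 0.998 RPKM.

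The cells were CD4+CD25hi Treg cells, FACS-sorted from C57BL/6 mice, and each transgene adds 1 microRNA in T cells. The series title names CD4cre, a Cre recombinase active in the whole T cell lineage, so the overexpression is not limited to Treg cells. Labelled WT Tg, 3 WT libraries served as the control of both. The labels do not say whether the libraries of a group came from separate mice, nor do they give age or sex. The p-values below therefore measure the spread between libraries of a group, which may be partly technical. In the main fit this spread was estimated from all 18 libraries, those of the other genotypes included. In bulk RNA, fewer cells of a type and less RNA per cell cannot be told apart.

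MicroRNAs are short RNAs that guide Argonaute proteins to messenger RNAs, mostly through pairing of the seed, bases 2 to 8, with a site in the 3′ UTR. The usual outcome is a modest loss of the target message and protein. miR-23, miR-27 and miR-24 are made from shared primary transcripts, and a pair of such clusters exists in mammals. Treg cells restrain immune responses under control of the transcription factor Foxp3. They range from resting cells, which carry lymph node homing genes, to effector cells, which carry tissue homing and inflammatory receptor genes.

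The mature sequences, from RefSeq for GRCm38.p6, are shown because the comparison sets one seed against the other. Each is written 5′ to 3′, with the seed in capitals.
mmu-miR-27a-3p: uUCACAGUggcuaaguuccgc
mmu-miR-27b-3p: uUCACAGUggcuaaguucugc
mmu-miR-23a-3p: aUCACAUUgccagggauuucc
Counted from 1 at the 5′ end, the miR-27a and miR-23a seeds differ at 1 of 7 bases, G7U. The miR-27a and miR-27b sequences share the seed and differ by C19U. Matching sites in a message read ACTGTGA for miR-27 and AATGTGA for miR-23.

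Reads at the microRNA loci followed the genotype labels. The loci lie on chromosome 8 of mm10 (GRCm38), with Mir23a at 84208518 to 84208592 and Mir27a at 84208672 to 84208758. At Mir27a the miR-27 Tg libraries 1, 2 and 3 had 76990, 79110 and 50010 RPKM, and the miR-23 Tg libraries had 135.1, 107.3 and 216.9. At Mir23a the miR-27 Tg libraries had 251.9, 244.2 and 88.1 RPKM, and the miR-23 Tg libraries had 31550, 31030 and 38280. The groups were far apart at both loci: the ratio of mean RPKM was 449, miR-27 Tg over miR-23 Tg, at Mir27a, and 173, miR-23 Tg over miR-27 Tg, at Mir23a. An exact permutation test, two-sided, gave p = 0.1 at each locus, and 3 against 3 libraries allow none smaller. These reads come from precursor or transgene transcripts, and do not measure the mature microRNAs. Mir24-2, the remaining cluster member, had 0, 11.3 and 48.95 RPKM in miR-27 Tg and 32.9, 28.3 and 36.0 RPKM in miR-23 Tg, with overlapping groups (exact p = 0.4). Gt(ROSA)26Sor, a noncoding RNA gene at a locus often used for transgenes, had a mean of 3.47 ± 0.453 RPKM in miR-27 Tg, 5.54 ± 0.534 in miR-23 Tg and 15.6 ± 2.89 in WT (SD, n = 3 each), and its difference between miR-27 Tg and miR-23 Tg did not pass (adjusted p = 0.0704).

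**Figure D1:**
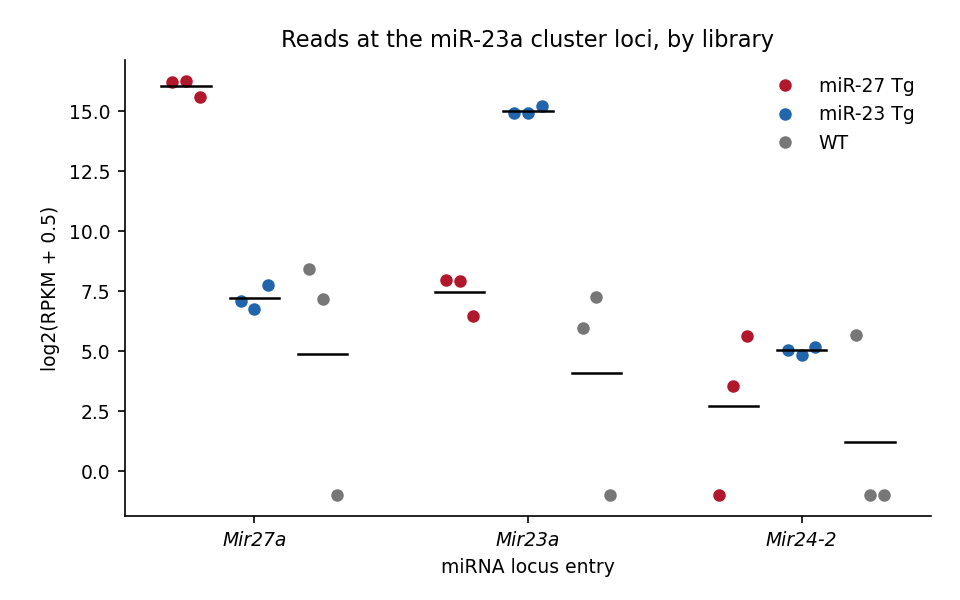
RPKM at 3 miRNA loci on a log2(RPKM + 0.5) axis, 1 point per library, with a bar at the mean of the log2 values, for miR-27 Tg, miR-23 Tg and WT. Mir27a is high in the miR-27 Tg libraries (50010 to 79110 RPKM) and Mir23a in the miR-23 Tg libraries (31030 to 38280 RPKM); points at the bottom are libraries listed at or near 0.

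All 6 libraries carried the markers of the sorted cells. Summed over 8 T cell and Treg genes, the RPKM was 2340 to 2660 in miR-27 Tg and 2370 to 2520 in miR-23 Tg. Depth, estimated from the steps between low values, was 22.07 to 31.69 megareads. The miR-27 Tg libraries were less alike than the miR-23 Tg libraries: the median absolute log2 difference per gene between a pair of libraries was 0.136 to 0.216 within miR-27 Tg, 0.118 to 0.155 within miR-23 Tg, and 0.209 to 0.284 between the groups. Many B cell, plasma cell and myeloid genes were present at low levels, and of the 6 libraries the list sums were highest in miR-27 Tg library 3. Cd37 (209 to 231 RPKM) and Cst3 (84.0 to 109) were not low and made up much of the B cell and myeloid sums. Single genes differed: S100a8 was highest in miR-27 Tg library 2 (14.6) and Cd68 in miR-23 Tg library 1 (7.15). The plasma cell gene Igj had 5.22, 20.7 and 83.0 RPKM in miR-27 Tg and 18.2, 19.4 and 8.17 in miR-23 Tg, and the myeloid gene Lyz2 had 5.65, 17.5 and 31.3 in miR-27 Tg and 18.2, 19.4 and 7.05 in miR-23 Tg. In miR-27 Tg library 1 both genes were below every miR-23 Tg library. Summed over the B cell list the RPKM was 310 to 382 in miR-27 Tg and 307 to 308 in miR-23 Tg, over the plasma cell list 112 to 220 in miR-27 Tg and 99.5 to 119 in miR-23 Tg, over the myeloid list 148 to 257 in miR-27 Tg and 154 to 208 in miR-23 Tg, and over the NK cell list 24.1 to 65.2 in miR-27 Tg and 17.9 to 25.1 in miR-23 Tg. No marker was at 0 in all 6 libraries. Of 16 B cell, 7 plasma cell, 14 myeloid and 7 NK cell markers tested, 1 of each list was called, all higher: Cd79b, Txndc5, Cebpa and Ncr1. The myeloid factor gene Cebpa had 9.95, 8.77 and 11.1 RPKM in miR-27 Tg, against 5.04, 4.19 and 4.07 in miR-23 Tg. The calls of Cd79b and Ncr1 ended without any 1 of 5 libraries (all but miR-27 Tg library 1 for Cd79b, all but miR-27 Tg library 2 for Ncr1), and that of Txndc5 without miR-27 Tg library 2 or 3 or miR-23 Tg library 2. No gene of the CD8 T cell and erythroid or platelet lists was called by limma, of 4 and 6 tested (2 and 0 at an unadjusted p under 0.05). The CD8 T cell sums did not overlap, at 33.0 to 47.2 RPKM in miR-27 Tg and 20.6 to 29.7 in miR-23 Tg. Of the 4 genes summed, only Gzmk was apart between the groups, higher in miR-27 Tg. Cd8a overlapped, at 2.47 to 6.56 RPKM in miR-27 Tg and 2.39 to 2.59 in miR-23 Tg. Cd8b1 overlapped as well, at 13.7 to 24.2 in miR-27 Tg and 10.2 to 15.2 in miR-23 Tg. Eomes also overlapped, with a log2 difference of -0.55. The erythroid or platelet sums were 6.7, 155 and 58.3 in miR-27 Tg and 36.1, 38.6 and 13.8 in miR-23 Tg, with the beta-globin gene Hbb-b1 at 1.45, 102 and 43.3 RPKM in miR-27 Tg, against 21.8, 25.1 and 6.07 in miR-23 Tg. The part of such cells in the other differences was not tested. Xist had 137 RPKM in miR-27 Tg library 1 and 72.1 in miR-23 Tg library 3 and was near 0 in the other 4 libraries. The Y-linked gene Ddx3y had 0.0134 and 0.0847 RPKM in those 2 libraries and 33.5 to 40.4 in the other 4. Kdm5d, Eif2s3y and Uty had the same pattern. Each group therefore held libraries from female and from male mice, with library 1 the only female one of miR-27 Tg. What sets that library apart cannot be told from sex, and the part of sex was not tested.

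The differences between the groups were widespread. At an adjusted p under 0.05 (limma on log2(RPKM + 0.5), Benjamini-Hochberg over the 11520 genes), 1431 genes (12.4%) were higher and 1261 (10.9%) lower in miR-27 Tg, together 23.4% of the genes tested. By at least 2-fold, 292 genes (2.53%) were higher and 123 (1.07%) lower. Over the called genes, the median absolute difference was 0.539 on the log2 scale and the median standard error 0.126. The 6 libraries did not overlap between the groups for 2642 of the 2692 called genes, against 42.2% of all genes tested. Leaving out 1 library at a time gave 942 to 1497 higher and 825 to 1333 lower, with 942 and 825 without miR-23 Tg library 2, and 836 lower without miR-27 Tg library 3. Set against the shared WT libraries in the same model, miR-27 Tg had 1830 genes higher (15.9%) and 1464 lower (12.7%), together 28.6%, and miR-23 Tg had 18 higher (0.156%) and 23 lower (0.2%), together 0.356%.

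Among the largest rises were genes of cell adhesion and costimulation. Itgam, the integrin alpha M chain (CD11b) best known from myeloid and NK cells, had 16.0, 13.7 and 11.8 RPKM in miR-27 Tg, against 0.847, 0.726 and 0.700 in miR-23 Tg and 0.437, 0.590 and 0.777 in WT. Every miR-27 Tg library was far above every miR-23 Tg and WT library. The NK cell gene Klrd1 had 10.1, 2.27 and 8.56 RPKM in miR-27 Tg, against 2.58, 2.84 and 2.13 in miR-23 Tg. Ncr1 had 3.52, 1.35 and 5.79 in miR-27 Tg, against 0.813, 0.976 and 0.796 in miR-23 Tg. Klrb1c, of the same list, overlapped, at 1.58, 1.12 and 3.07 in miR-27 Tg and 1.81, 2.11 and 1.63 in miR-23 Tg. Of 7 NK cell markers tested, 5 had a positive and 2 a negative difference (Eomes at a log2 difference of -0.55), and only Ncr1 was called. The part of other cells in the Itgam values was not tested. Itgam, on chromosome 7 from 128062640 to 128118491, was 11.3-fold higher on the log2(RPKM + 0.5) scale, with a ratio of mean RPKM of 18.3 (log2 difference 3.50, SE 0.301, adjusted p = 8.36e-06). Cd80, a ligand of CD28 and CTLA-4 on chromosome 16 from 38455561 to 38496335, had 18.3, 23.8 and 22.6 RPKM in miR-27 Tg, against 1.73, 2.05 and 1.86 in miR-23 Tg and 3.34, 4.63 and 3.58 in WT. The groups did not overlap and the rise was 9.23-fold (adjusted p = 1.87e-05). Slc15a3, a lysosomal peptide and histidine transporter gene, rose 8.71-fold (20.4, 16.8 and 19.0 RPKM in miR-27 Tg, against 1.90, 1.55 and 1.67 in miR-23 Tg). Klrg1, an inhibitory receptor of terminally differentiated T cells, rose 5.38-fold (85.8, 56.2 and 49.6 RPKM in miR-27 Tg, against 11.2, 11.5 and 10.8 in miR-23 Tg).

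The other 11 of the 15 largest rises were Fads2 (fatty acid desaturation), Muc13 (a membrane mucin), Phlda3 (a p53-induced inhibitor of AKT), Ifi44, Ifi204, Oas2 and Ifitm3 (interferon-induced), Ctnnd1 (p120 catenin, which binds cadherins), Hap1, Tmem176a and Lgals7 (a galectin). Their log2 differences ran from 2.36 for Lgals7 to 2.75 for Fads2. Some were low genes: Fads2 had 1.57, 5.02 and 6.58 RPKM in miR-27 Tg, against 0.131, 0.111 and 0.192 in miR-23 Tg, and Muc13 had 2.28, 5.15 and 3.23 in miR-27 Tg, against 0.0988, 0.0523 and 0.147 in miR-23 Tg. At such levels the log2(RPKM + 0.5) scale understates the fold: the ratio of mean RPKM was 30.4 for Fads2, 35.7 for Muc13, 17 for Ifi44, 15.7 for Ifi204 and 9.14 for Ctnnd1, against folds of 6.73, 6.49, 5.75, 5.72 and 5.44 on that scale. None of these 15 calls ended without any 1 of the 6 libraries.

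**Figure D2:**
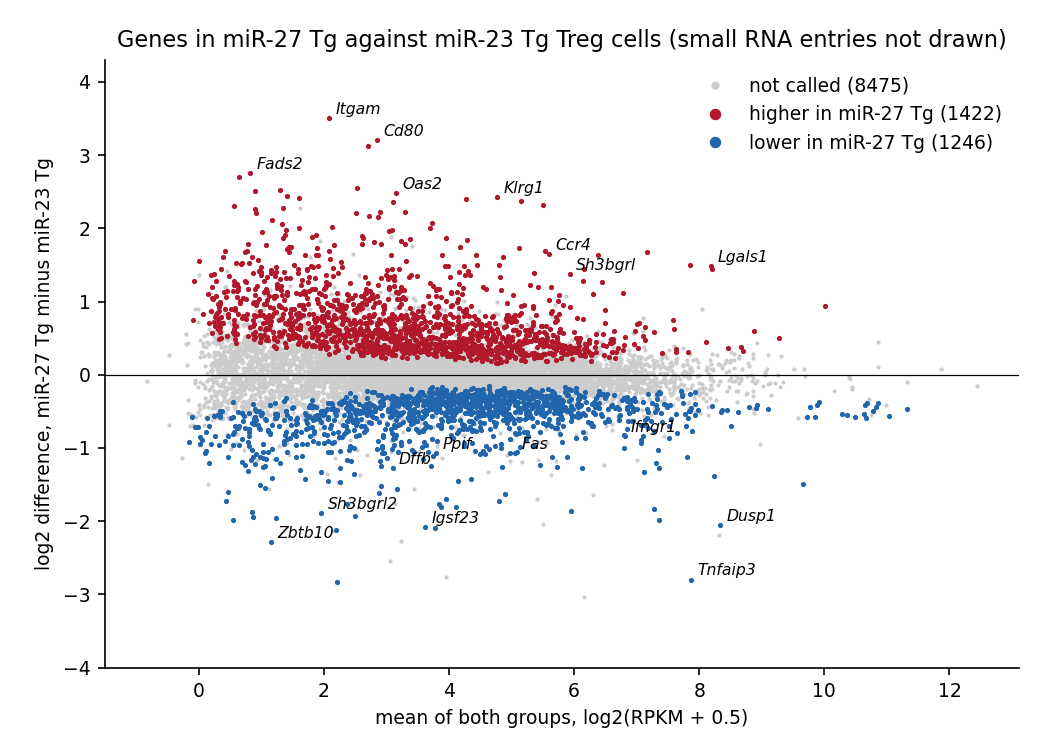
Log2 difference, miR-27 Tg minus miR-23 Tg, against the level, log2(mean RPKM + 0.5) averaged over both groups, 1 point per gene, with genes called higher (red), lower (blue) or not called (grey). Small RNA entries, Mir27a and Mir23a among them, are not drawn. Called genes lie on both sides over the whole range of levels; of the called genes drawn, Itgam (3.50) has the largest rise and Snhg9 (-2.83) the largest fall.

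The largest falls included Igsf23, an immunoglobulin superfamily gene. It had 4.58, 6.50 and 5.37 RPKM in miR-27 Tg, against 26.9, 24.7 and 22.5 in miR-23 Tg and 15.8, 20.5 and 21.8 in WT (log2 difference -2.08, adjusted p = 5.65e-05). Zbtb10, a zinc finger repressor gene and a reported miR-27 target in human cancer cells, had 0.789, 0.379 and 0.380 RPKM in miR-27 Tg, against 4.04, 3.87 and 5.32 in miR-23 Tg and 4.72, 3.72 and 2.50 in WT, and fell 4.87-fold on the log2(RPKM + 0.5) scale (adjusted p = 0.000144), with mean RPKM lower by a ratio of 8.54. Both genes were below every miR-23 Tg and WT library in each miR-27 Tg library. Sh3bgrl2 (a thioredoxin-like gene), Scg5, Cldn10 (a claudin), C2cd4b and the noncoding RNA genes Snhg9 and Tmevpg1 (next to Ifng) fell as well, with log2 differences from -1.87 for Tmevpg1 to -2.83 for Snhg9. The ratio of mean RPKM, miR-23 Tg over miR-27 Tg, was also over 1.5 times the fold on the log2 scale for Scg5 (5.84), Cldn10 (7.52) and Tmevpg1 (6.53).

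The other 7 of the 15 largest falls were Tnfaip3, Dusp1, Ppp1r15a, Csrnp1, Rhob, Apol8 and Ciart, and these varied between miR-27 Tg libraries. Tnfaip3, which encodes A20, an inhibitor of NF-kB signalling, had 134, 122 and 31.6 RPKM in miR-27 Tg, against 529, 507 and 663 in miR-23 Tg and 565, 464 and 136 in WT (log2 difference -2.80, SE 0.909, adjusted p = 0.0387). Dusp1, a phosphatase that ends MAP kinase signals, had 333, 180 and 40.4 in miR-27 Tg, against 574, 520 and 591 in miR-23 Tg and 545, 433 and 253 in WT (adjusted p = 0.0478). Library 3 was lowest in miR-27 Tg and in WT for both. The calls of Tnfaip3, Dusp1 and Ppp1r15a ended without any 1 of 5 libraries (all but miR-27 Tg library 1), with highest adjusted p of 0.153, 0.212 and 0.171. That of Csrnp1 ended without any 1 of 6 (highest 0.132), that of Rhob without either miR-27 Tg library 2 or 3 or miR-23 Tg library 1 or 2 (0.0753), that of Apol8 without library 3 of either group (0.0742), and that of Ciart without miR-27 Tg library 3 (0.0503).

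**Figure D3:**
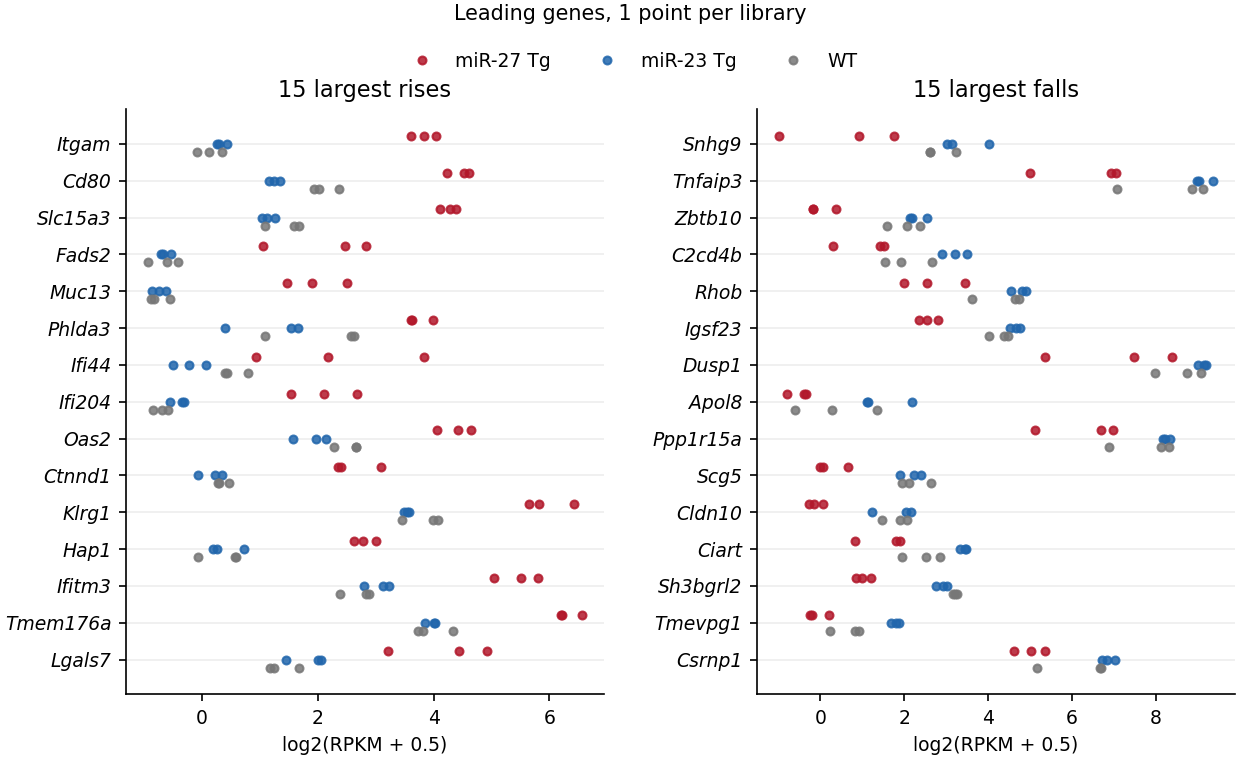
Log2(RPKM + 0.5) of the 15 largest rises (left) and 15 largest falls (right), 1 point per library, miR-27 Tg in red, miR-23 Tg in blue and WT in grey. The groups miR-27 Tg and miR-23 Tg do not overlap, which the choice of genes required; the miR-27 Tg points of Tnfaip3 and Dusp1 are spread out (31.6 to 134 and 40.4 to 333 RPKM).

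Effector Treg genes were mostly higher in miR-27 Tg. Of 35 tested, 21 were higher and 1 (Itgae, an integrin chain) lower (none without any 1 of 5 libraries, all but miR-27 Tg library 1, and 2 without that one), with a median log2 difference of 0.649, against a median of 0.00794 over all genes, of which 12.4% were higher and 10.9% lower. Maf, a transcription factor gene of effector and follicular T cells, had 134, 137 and 132 RPKM in miR-27 Tg, against 56.9, 57.4 and 52.2 in miR-23 Tg and 45.0, 48.0 and 44.2 in WT (2.42-fold, adjusted p = 4.59e-05). Ccr4, a chemokine receptor for skin and tissue homing, had 78.1, 94.0 and 84.4 in miR-27 Tg, against 29.9, 25.4 and 25.4 in miR-23 Tg and 20.4, 26.3 and 27 in WT (3.14-fold, adjusted p = 6.38e-05). Il1rl1, which encodes the IL-33 receptor ST2 of tissue Treg cells, had 25.3, 18.5 and 18.4 in miR-27 Tg, against 4.04, 3.46 and 4.55 in miR-23 Tg and 5.62, 4.92 and 3.77 in WT (4.67-fold, adjusted p = 0.000116). For these 3 genes each miR-27 Tg library was well above every miR-23 Tg library, while the WT libraries lay near miR-23 Tg.

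Resting T cell genes moved the other way. Of 22 tested, none was higher (1 without miR-27 Tg library 1) and 10 were lower, with a median of -0.377. Ccr7, the receptor for lymph node homing, had 88.7, 106 and 101 RPKM in miR-27 Tg, against 186, 183 and 180 in miR-23 Tg and 177, 167 and 177 in WT (1.86-fold lower, adjusted p = 0.000308). Foxp1, a transcription factor gene of T cell quiescence, had 27.9, 28.4 and 26.6 in miR-27 Tg, against 44.6, 40.8 and 42.9 in miR-23 Tg, and Nsg2 and Tspan13 also fell. All 4 stood lower in every miR-27 Tg library than in any miR-23 Tg or WT library.

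The Treg identity list was split. Of its 30 genes 6 were higher and 6 lower (2 lower without miR-27 Tg library 3), with a median of 0.0197. Foxp3 had 328, 290 and 197 RPKM in miR-27 Tg, against 243, 215 and 249 in miR-23 Tg and 334, 287 and 336 in WT, so the groups overlapped (adjusted p = 0.473). Il2ra (the CD25 used for sorting), Ctla4 and Il10 did not pass either, at adjusted p of 0.0830, 0.364 and 0.243. Ikzf2, which encodes Helios, had 141, 105 and 96.9 in miR-27 Tg, against 66.8, 58.7 and 83.8 in miR-23 Tg, and 96.6, 101 and 111 in WT (1.63-fold higher, adjusted p = 0.00418), and here the WT libraries lay beside miR-27 Tg. Socs2, a feedback inhibitor of cytokine signals, rose to 68.6, 73.6 and 56.9 RPKM in miR-27 Tg, against 23.2, 25.8 and 25.4 in miR-23 Tg. Ikzf1, which encodes Ikaros, fell to 67.2, 78.5 and 80.7 in miR-27 Tg, against 121, 111 and 121 in miR-23 Tg. Of 19 Treg suppression genes 6 were higher and none lower (2 lower without miR-27 Tg library 3), among them Cd80, Lgals1 (galectin-1) and Ebi3, a subunit of IL-35 with 54.0, 44.7 and 42.5 RPKM in miR-27 Tg, against 23.2, 22.1 and 20.1 in miR-23 Tg.

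Genes of helper T cell programs rose in part. Of 16 Th17 genes, 10 were higher and none lower, with a median of 0.773. Ccl20, a ligand of CCR6, had 8.88, 10.7 and 15.7 RPKM in miR-27 Tg, against 1.38, 2.30 and 2.79 in miR-23 Tg and 1.96, 2.40 and 0.870 in WT (4.62-fold, adjusted p = 0.000102). Tmem176a and Tmem176b, a pair of membrane protein genes, rose 5.16-fold and 4.98-fold. Of 17 Th1 genes 3 were higher (17.6%), and of 14 follicular T cell genes 5 were higher (35.7%), against 12.4% of all genes tested. None was lower in either list (1 Th1 gene lower without miR-27 Tg library 1 or miR-23 Tg library 3). The lists share called genes, so their counts are not independent. Maf is in the effector Treg, Th17 and follicular lists, Batf in the first and second, and Icos and Pdcd1 in the first and last. Angptl2, of the follicular list, had 49.0, 53.0 and 48.8 RPKM in miR-27 Tg, against 17.7, 14.9 and 15.9 in miR-23 Tg. Tbx21, Gata3 and Bcl6, the transcription factor genes of Th1, Th2 and follicular cells, did not pass (adjusted p = 0.0734, 0.533 and 0.251).

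Lists of receptor families, some with ligands among them, gave counts above the background on the higher side. Of 10 genes of the IL-1 and IL-18 receptor list 7 were higher and none lower (median 1.02). These 7 include Il1rn, the IL-1 receptor antagonist, and Il18bp, an IL-18 binding protein, which are not receptors. Il1rn had 3.56, 4.82 and 5.33 RPKM in miR-27 Tg, against 1.08, 0.905 and 0.564 in miR-23 Tg. Il18r1 and Il18rap, the chains of the IL-18 receptor, rose 2.28-fold and 2.57-fold. Of 19 genes of the chemokine receptor list 9 were higher and 2 (Ccr7 and Ccr9) lower. That list also holds the lipid receptor genes S1pr1, S1pr4 and Gpr183, and Gpr183 was among the 9. Gpr15, a receptor for homing to the large intestine, had 33.5, 17.4 and 26.9 RPKM in miR-27 Tg, against 6.82, 5.59 and 5.28 in miR-23 Tg. The groups were fully separated for Gpr15. Of 27 genes of the TNF receptor family list, which includes the ligands, 11 were higher (6 without miR-23 Tg library 2). Higher were the ligand genes Tnfsf4, Tnfsf8, Tnfsf9, Tnfsf10, Tnfsf11, Tnfsf14 and Tnf and the receptor genes Tnfrsf1b, Tnfrsf8, Tnfrsf13b and Tnfrsf14. The 3 lower genes (1 without miR-27 Tg library 3) were the receptor genes Fas, Cd27 and Tnfrsf26. Of 18 integrin genes 7 were higher and 2 lower (none lower without miR-27 Tg library 3 or miR-23 Tg library 1). Of 17 genes of the CD28 family and its ligands 6 were higher and 2 lower. The lower counts of the chemokine receptor and CD28 family lists were 1 without any 1 of 5 libraries, all but miR-27 Tg library 1. Itgb1, the shared beta 1 chain of many integrins, had 141, 145 and 202 RPKM in miR-27 Tg, against 75.5, 74.6 and 70.4 in miR-23 Tg, and Itgb3 rose as well. Tnfsf8, the CD30 ligand, had 82.2, 55.2 and 69.4 in miR-27 Tg, against 33.8, 34.6 and 31.7 in miR-23 Tg. Pdcd1, the inhibitory receptor PD-1, had 79.7, 65.2 and 58.5 in miR-27 Tg, against 40.6, 36.8 and 32.2 in miR-23 Tg, while Cd96 was lower, at 84.9, 55.9 and 60.3 in miR-27 Tg, against 94.2, 99.5 and 94.6 in miR-23 Tg. Icos, a costimulatory receptor, had 150, 186 and 195 RPKM in miR-27 Tg, against 110, 114 and 110 in miR-23 Tg. Of 21 galectin, S100 and annexin genes 8 were higher and 1 lower (none lower without miR-27 Tg library 2 or 3 or miR-23 Tg library 2). Anxa4, an annexin, had 12.4, 12.8 and 12.9 RPKM in miR-27 Tg, against 4.74, 4.88 and 4.65 in miR-23 Tg (adjusted p = 4.37e-05), and Lgals1 had 293, 546 and 666 in miR-27 Tg, against 154, 176 and 177 in miR-23 Tg, with library 1 the lowest of its group.

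Interferon response genes showed the highest share of rises among the lists. Of 46 tested, 35 were higher and none lower, 45 had a positive sign, and the median log2 difference was 0.752. Oas2 and Oas3, which sense double-stranded RNA, had 24.7, 20.9 and 16.2 and 31.7, 26.1 and 28.8 RPKM in miR-27 Tg, against 3.91, 3.43 and 2.48 and 9.60, 7.10 and 6.22 in miR-23 Tg. Eif2ak2, the kinase PKR, had 30.8, 27.1 and 25.2 in miR-27 Tg, against 12.4, 9.82 and 13.6 in miR-23 Tg and 14.6, 13.9 and 13.6 in WT (2.28-fold, adjusted p = 1.97e-05). Ifit3, an antiviral effector gene, had 24.6, 14.7 and 19.4 in miR-27 Tg, against 4.51, 5.54 and 4.78 in miR-23 Tg (3.62-fold, adjusted p = 5.04e-05). The groups were apart for each of these genes, and the highest value was in miR-27 Tg library 1. Reads of Ifit3 and Ifi204 can be shared with near-identical neighbours, so their own levels are uncertain. Among signalling genes, Stat2 rose to 54.8, 47.3 and 39.9 RPKM in miR-27 Tg, against 25.1, 24.5 and 28.0 in miR-23 Tg. Ifngr1, a chain of the interferon gamma receptor, fell to 94.6, 84.5 and 72.2 in miR-27 Tg, against 148, 154 and 145 in miR-23 Tg and 127, 130 and 126 in WT (1.78-fold, adjusted p = 5.89e-05).

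The lists were also examined with miR-27 Tg library 1 alone against the 3 miR-23 Tg libraries. That library was low in B cell genes, Igj and Lyz2, but its NK cell sum (30.3 RPKM) and the myeloid genes Cebpa (9.95) and Fcer1g (14, against 12.4 to 13.9 in miR-23 Tg) were above all 3 miR-23 Tg libraries. Of the interferon list 31 were then higher, of the effector Treg list 13, of the Th17 list 7 and of the IL-1 and IL-18 receptor list 6, with medians of 1.01, 0.766, 0.886 and 0.939. Other counts were smaller. In the galectin, S100 and annexin list 1 gene was higher (8 with all 3 miR-27 Tg libraries), in the TNF receptor family 5 (11) and among antioxidant genes 1 (9). Of resting T cell genes 6 were lower (10 with all 3), of ribosomal protein genes 1 (22), of proximal T cell receptor genes 1 (9) and of immediate-early genes 1 (6), and no mitosis or S phase gene was called. The median of the B cell marker list was -0.468 there, against 0.330 with all 3 miR-27 Tg libraries. A lone library was assumed to vary like the others. By Xist and Ddx3y, library 1 was also the only female one of miR-27 Tg, so library and sex cannot be told apart there. For the lists with no call in one direction, limma at an unadjusted p under 0.05 gave 2 resting T cell genes and 2 NF-kB genes higher and no ribosomal protein gene higher. On the lower side it gave 1 Treg suppression gene and 2 Th1 genes, and none of the Th17, follicular, IL-1 and IL-18 receptor or interferon response lists.

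**Figure D4:**
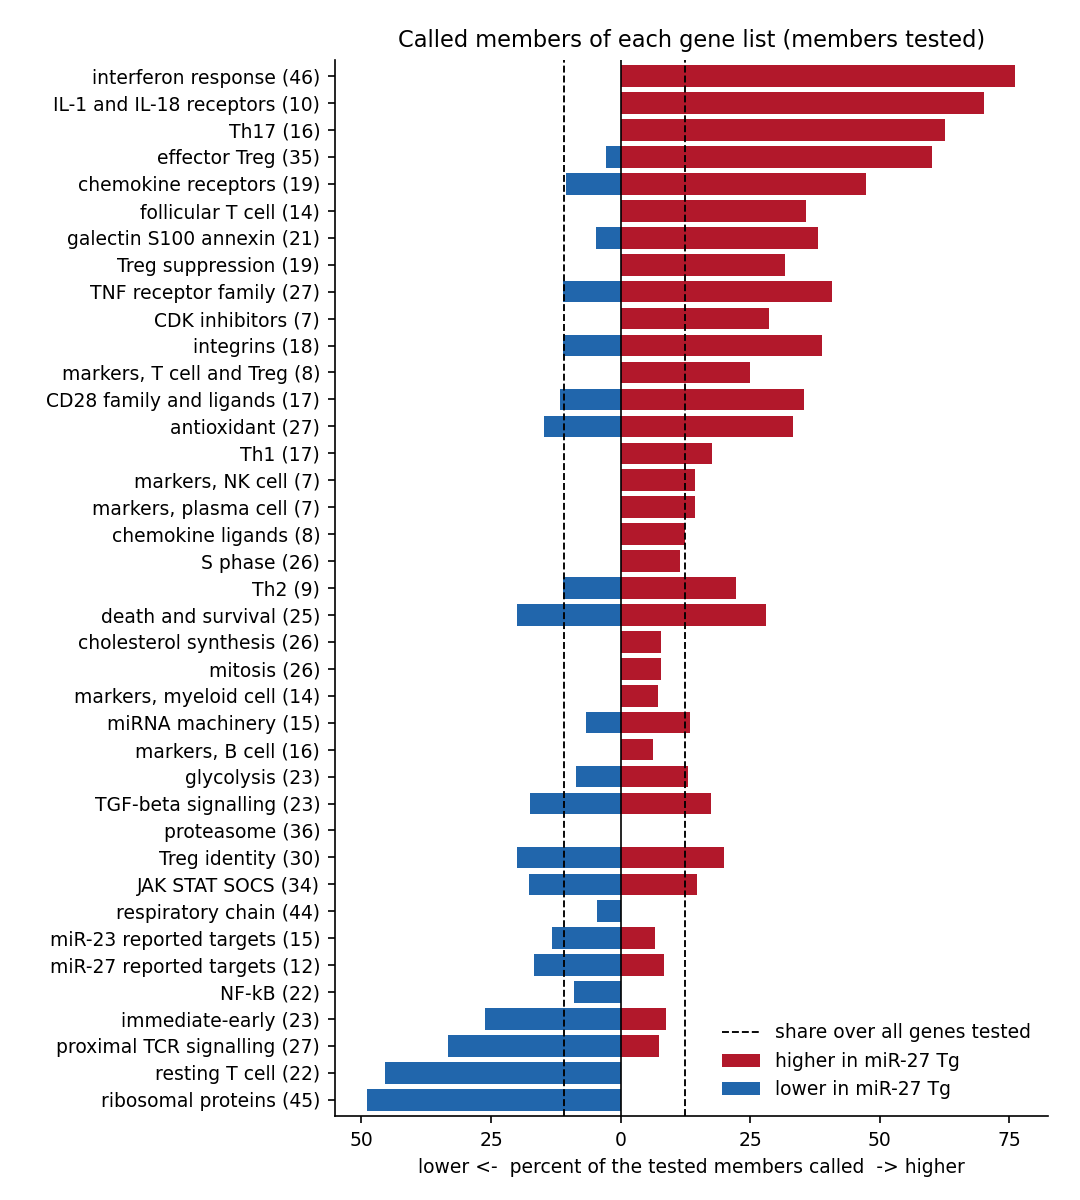
Percent of the tested members of each gene list called higher (right, red) or lower (left, blue) in miR-27 Tg than in miR-23 Tg, with the number tested in brackets and dashed lines at the shares over all genes (12.4% and 10.9%). The interferon response list is highest at 76.1% higher, and the ribosomal protein list lowest at 48.9% lower.

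T cell receptor signalling genes were more often lower than higher. Of 27 proximal genes 9 were lower (5 without miR-27 Tg library 3) and 2 higher (none without miR-27 Tg library 3 or miR-23 Tg library 2), with a median of -0.134. Cblb, a ubiquitin ligase that restrains T cell activation, had 17.2, 15.3 and 14.6 RPKM in miR-27 Tg, against 36.2, 32.9 and 29.9 in miR-23 Tg and 27.9, 29.7 and 26.3 in WT (2.07-fold lower, adjusted p = 0.000185). Cd247 (the zeta chain) and the phosphatase Ptpn22 fell less, with log2 differences of -0.38 and -0.56. Of 23 immediate-early genes, 6 were lower (Jun, Junb, Dusp1, Dusp2, Myc and Zfp36) and 2 (Egr2 and Egr3) higher. Dusp2 had 130, 128 and 85.5 RPKM in miR-27 Tg, against 226, 228 and 238 in miR-23 Tg, and Egr3 had 20.6, 18.6 and 19.1 in miR-27 Tg, against 12.2, 10.1 and 11.8 in miR-23 Tg. Summed over the list the RPKM was 2820, 2070 and 1130 in miR-27 Tg, 4790, 4280 and 4880 in miR-23 Tg, and 4750, 4220 and 2390 in WT, so 1 WT library fell within the miR-27 Tg range. The lower count was 10 without miR-27 Tg library 1 and 2 without any 1 of the other 5 libraries, and it was 15 with a replicate block, 10 with only the 6 libraries in the fit and 3 without the filter. Immediate-early RNA also responds to handling of cells, and its part in these values was not tested. Of 22 NF-kB genes 2 were lower (Tnfaip3 and Birc3) and none higher, and 1 was lower without any 1 of the libraries other than miR-27 Tg library 1. Without miR-27 Tg library 3, 1 was higher. With a replicate block or with only the 6 libraries in the fit, 5 were lower.

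Genes of cell death moved both ways. Fas, the death receptor, had 23.8, 21.4 and 22.1 RPKM in miR-27 Tg, against 43.9, 51.9 and 47.1 in miR-23 Tg and 53.6, 54.2 and 54.8 in WT (2.09-fold lower, SE 0.0772 on the log2 scale, adjusted p = 2.82e-06). Ppif, which encodes cyclophilin D of the mitochondrial permeability pore, had 10.1, 8.12 and 8.98 in miR-27 Tg, against 19.9, 18.6 and 20.2 in miR-23 Tg and 25.8, 23.1 and 24.8 in WT (2.10-fold lower, adjusted p = 8.13e-06). Fas and Ppif are both reported miR-23 targets, and both were lower where miR-27 was overexpressed. For both genes every miR-23 Tg library was also below every WT library. The inhibitor of apoptosis gene Xiap rose (33.9, 35.0 and 31.7 RPKM in miR-27 Tg, against 21.2, 21.2 and 22.3 in miR-23 Tg). Of all 25 genes of this list 7 were higher and 5 lower, with 2 lower without miR-23 Tg library 1 or 2 and 3 lower without any 1 of the others.

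Cell cycle genes separated the miR-27 Tg libraries from each other. Summed over 26 mitosis genes, the RPKM was 299, 800 and 776 in miR-27 Tg, 307, 310 and 294 in miR-23 Tg, and 68.1, 117 and 147 in WT. Libraries 2 and 3 of miR-27 Tg were high, and library 1, the only one of its group with high Xist, lay within the miR-23 Tg range. All 26 mitosis genes and all 26 S phase genes had a positive difference, but 2 and 3 passed. Mki67, the marker of cycling cells, had 31.9, 82.7 and 71.7 in miR-27 Tg, against 24.9, 22.3 and 25.7 in miR-23 Tg (adjusted p = 0.0167), and was no longer called without miR-27 Tg library 2, miR-27 Tg library 3 or miR-23 Tg library 2 (highest adjusted p = 0.0784). Without miR-27 Tg library 1, 20 mitosis genes and 20 S phase genes were called, and without miR-27 Tg library 2 or 3 none was in either list. Without a miR-23 Tg library, 0 or 1 mitosis gene (0 without library 2) and 1 S phase gene were called. With a replicate block 9 of each list were called, with only the 6 libraries none and 1, and without small RNA entries 4 and 6. Cdkn2c, an inhibitor of CDK4 and CDK6, was separated in all libraries, at 22.3, 35.6 and 39.5 in miR-27 Tg, against 12.3, 11.8 and 11.9 in miR-23 Tg (2.57-fold, adjusted p = 0.000460), and Cdkn2a, the INK4A and ARF gene, had 3.12, 3.84 and 6.32 in miR-27 Tg, against 1.01, 0.648 and 0.777 in miR-23 Tg. They were the called genes among 7 CDK inhibitors.

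Ribosomal protein genes were lower by small amounts. Of 45, 22 were lower and none higher, 44 had a negative sign, and the median was -0.440; leaving out any 1 library gave 8 (without miR-23 Tg library 2) to 14 (without miR-23 Tg library 3) lower. Rpl3 had 55.3, 59.4 and 49.3 RPKM in miR-27 Tg, against 78.4, 87.8 and 77.9 in miR-23 Tg, and Rpl23 had 125, 117 and 117 in miR-27 Tg, against 168, 212 and 180 in miR-23 Tg. Many ribosomal protein genes have processed pseudogenes that can take part of their reads. In metabolism, Pdk1, a kinase that limits entry of pyruvate into the mitochondrial cycle, had 14.8, 12.8 and 15.4 RPKM in miR-27 Tg, against 30.1, 28.9 and 31.3 in miR-23 Tg (2.06-fold lower, adjusted p = 2.96e-05), while Aldoc, a glycolytic aldolase, had 11.2, 9.27 and 8.23 in miR-27 Tg, against 3.87, 3.30 and 3.95 in miR-23 Tg. Of 36 proteasome genes none was called by limma (1 was higher at an unadjusted p under 0.05, and 2 were called higher without miR-27 Tg library 1), of 44 respiratory chain genes 2 were lower (none without library 2 of either group), and of 26 cholesterol synthesis genes 2 were higher (none without miR-27 Tg library 3 or miR-23 Tg library 1 or 2). Of 23 TGF-beta signalling genes 4 were higher and 4 lower (2 lower without miR-27 Tg library 2 or 3 or miR-23 Tg library 1 or 3), with Smad7, the inhibitory SMAD, at 27.5, 24.8 and 21.3 RPKM in miR-27 Tg, against 50.2, 45.8 and 51.4 in miR-23 Tg.

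Cytokine signalling genes were split. Of 34 JAK, STAT and SOCS pathway genes 5 were higher (3 without miR-27 Tg library 1 or miR-23 Tg library 1 or 2) and 6 lower (3 without miR-27 Tg library 3 or miR-23 Tg library 1), with a median of -0.0292. Il4ra, the IL-4 receptor chain, fell to 46.6, 56.0 and 49.0 RPKM in miR-27 Tg, against 78.2, 71.8 and 77.0 in miR-23 Tg and 78.0, 85.9 and 76.6 in WT. It stood apart from both other groups. Of 27 antioxidant genes 9 were higher (4 without miR-27 Tg library 2, and 5 without miR-27 Tg library 3 or miR-23 Tg library 1 or 3) and 4 lower. Gsto1, a glutathione transferase, fell to 23.3, 26.4 and 19.6 in miR-27 Tg, against 34.7, 35.6 and 35.6 in miR-23 Tg and 54.1, 53.2 and 56.4 in WT, so miR-23 Tg lay between. Of 23 glycolysis genes 3 were higher and 2 lower, among them the glucose transporter Slc2a3, at 24.5, 24.2 and 23.6 in miR-27 Tg, against 35.2, 32.9 and 40.8 in miR-23 Tg. Of 15 genes of the microRNA machinery 2 were higher (1 without miR-23 Tg library 3) and 1 lower (Pan3, a deadenylase subunit; none without miR-27 Tg library 3). Dgcr8, the partner of Drosha in cutting primary transcripts, had 21.6, 25.2 and 24.2 RPKM in miR-27 Tg, against 17.1, 16.3 and 16.2 in miR-23 Tg and 15, 15.2 and 16.0 in WT (adjusted p = 0.000198).

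Reported targets were called about as often as genes in general: 3 of 12 for miR-27 and 3 of 15 for miR-23, against 23.4% of all genes tested. Of 12 reported miR-27 targets, 2 were lower (Zbtb10 and Phb) and 1 higher (Nfe2l2, the antioxidant response factor NRF2), with a median of -0.234. Phb, prohibitin, had 8.55, 9.17 and 9.04 RPKM in miR-27 Tg, against 13.9, 15.2 and 11.3 in miR-23 Tg. Nfe2l2 had 16.8, 17.2 and 15.9 in miR-27 Tg, against 13, 15.3 and 12.1 in miR-23 Tg, a call that ended without miR-27 Tg library 2, miR-23 Tg library 1 or miR-23 Tg library 3 (highest adjusted p = 0.0989). Of 15 reported miR-23 targets, 1 was higher (Smad5) and 2 lower (Fas and Ppif), with a median of 0.0031. The Smad5 call ended without any 1 of the 6 libraries (highest adjusted p = 0.122).

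Genes were then grouped by seed matches in the longest annotated 3′ UTR (GENCODE M21), available for 10565 tested genes. On the transcript strand, 17.2% of these UTRs held ACTGTGA (miR-27) and 16.4% held AATGTGA (miR-23); the heptamers differ at 1 base, and neighbouring matches can share at most 1, an end A. Of 1336 genes with a miR-27 match and no miR-23 match, 212 (15.9%) were lower and 144 (10.8%) higher in miR-27 Tg, with a median log2 difference of -0.0373. Of 1249 genes with a miR-23 match and no miR-27 match, 88 (7.05%) were lower and 244 (19.5%) higher, with a median of 0.0939. Among 7500 genes with neither match, 830 (11.1%) were lower and 891 (11.9%) higher (median 0.00586), and among 480 with both, 54 were lower and 86 higher (median 0.0548). All these medians were small on the log2 scale, and the median over all 10565 genes was 0.0127.

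A match to 8 bases, the heptamer followed by A, gave medians of -0.0592 for 578 miR-27 genes and 0.123 for 649 miR-23 genes. With 2 or more miR-23 matches and no miR-27 match, 47 of 193 genes were higher and 6 lower (median 0.143). With 2 or more miR-27 matches and no miR-23 match, 24 of 186 were higher and 31 lower (median -0.0255). UTR length moved with these values. In UTRs of at least 2000 bases, 657 genes with a miR-27 match alone had 78 higher and 74 lower (median 0.00939), 651 with a miR-23 match alone had 139 higher and 44 lower (median 0.117), and 1397 with neither had 217 higher and 113 lower (median 0.0530). In UTRs of 500 to 1000 bases the medians were -0.117 for 166 miR-27 genes, 0.0254 for 147 miR-23 genes and -0.00612 for 1795 genes with neither. In both bands the miR-27 genes lay below, and the miR-23 genes above, those with neither.

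**Figure D5:**
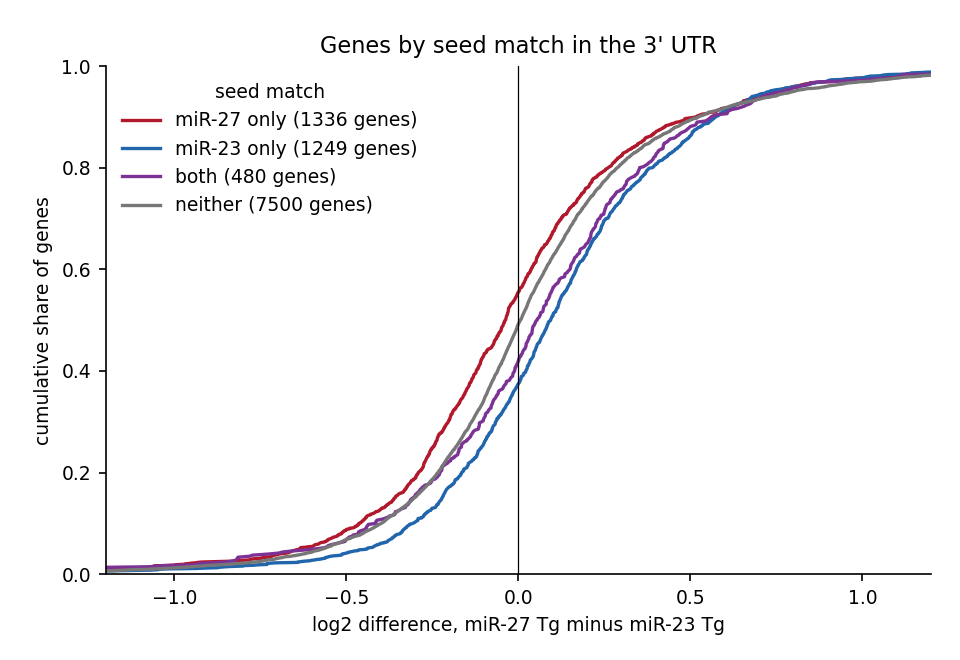
Cumulative share of genes by log2 difference, miR-27 Tg minus miR-23 Tg, for genes with a miR-27 seed match only, a miR-23 match only, both or neither in the 3′ UTR. The miR-27 curve lies left of the curve for neither (median -0.0373 against 0.00586) and the miR-23 curve right of it (median 0.0939), and the tails of all 4 curves come together.

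Single genes with a match to one seed show both directions. The UTR windows below are from GENCODE M21 transcripts (GRCm38), 5′ to 3′ on the transcript strand, with the heptamer in capitals. The first 3 hold a miR-27 match and were lower in miR-27 Tg, the next 3 hold a miR-23 match and were higher, and the last 3 hold a match and moved the other way.
Dffb: ggctgaacttggccACTGTGAt
Hsdl1: agtgttattttcaaACTGTGAa
Eid1: tgatttataaagctACTGTGAc
Sh3bgrl: acaagcataatgaaAATGTGAa
Marcksl1: ggagggaggtctgtAATGTGAa
M6pr: ggacagggaaaaaaAATGTGAa
Ctnnd1: cagctaccttagtaACTGTGAa
Fas: tgaaatttgtattaAATGTGAa
Pdk1: taatggatggagacAATGTGAc
The matches are descriptions, and binding was not measured.

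Dffb, the nuclease that cuts DNA in apoptosis, had 5.49, 4.74 and 4.84 RPKM in miR-27 Tg, against 12.9, 12.4 and 13.1 in miR-23 Tg and 11.1, 11.3 and 10.9 in WT (2.41-fold lower, adjusted p = 1.32e-07). Hsdl1, a dehydrogenase-like gene, had 19.9, 18.6 and 20.7 in miR-27 Tg, against 41.5, 40.2 and 38.0 in miR-23 Tg and 39.6, 37.3 and 37.8 in WT, and Eid1, an inhibitor of the EP300 acetyltransferase, had 13, 12.4 and 13.9 in miR-27 Tg, against 21.8, 24 and 22.7 in miR-23 Tg. For these genes the WT libraries lay near miR-23 Tg, and the spread within each group was small. Mccc2 (leucine breakdown) was also among the 5 such genes with the lowest p, at a log2 difference of -1.06.

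Sh3bgrl, a small thioredoxin-like gene, had the lowest p of the genes with a miR-23 match alone that were higher in miR-27 Tg. It had 101, 95.4 and 97.8 RPKM in miR-27 Tg, 35.5, 38.7 and 38.3 in miR-23 Tg, and 56.9, 55.9 and 55.1 in WT, so WT lay between. Against WT it was called on both sides in the same model, higher in miR-27 Tg (log2 difference 0.80, adjusted p = 8.56e-06) and lower in miR-23 Tg (-0.57, adjusted p = 0.00488). Pyhin1, an interferon-inducible gene, had the same order, at 73.7, 75.1 and 77.0 in miR-27 Tg, 36.3, 38.0 and 37.8 in miR-23 Tg, and 49.3, 54.5 and 59.6 in WT. M6pr, a receptor that sorts lysosomal enzymes, differed in a second way: 123, 121 and 122 in miR-27 Tg, 82.4, 82.7 and 75.5 in miR-23 Tg, and 82.1, 84.9 and 83.5 in WT, with WT and miR-23 Tg overlapping. Marcksl1, an actin regulator, likewise had 54.9, 66.6 and 65.8 in miR-27 Tg, 20.0, 19.3 and 16.3 in miR-23 Tg, and 21.6, 19.2 and 18.6 in WT.

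Against the direction of their match, Ctnnd1 (8.03, 4.81 and 4.58 RPKM in miR-27 Tg, against 0.778, 0.458 and 0.670 in miR-23 Tg), Ifit3 and Ifih1 (an RNA sensor, 22, 19.3 and 19.4 in miR-27 Tg, against 8.63, 8.31 and 9.17 in miR-23 Tg) rose with a miR-27 match. Fas, Ifngr1 and Pdk1 fell with a miR-23 match. Zbtb10, the largest fall among reported miR-27 targets, held a miR-23 match and no miR-27 match in the transcript used, and Ppif held 1 miR-27 and 2 miR-23 matches.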

How the data were processed

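Total RNA of sorted mouse Treg cells, small RNAs kept, was made into TruSeq RNA libraries and sequenced on an Illumina HiSeq instrument, per the labels' protocols. The authors deposited 1 table of RPKM values for 18 libraries. The submitters' processing notes name STAR 2.2.0c, HOMER and mm10 (GRCm38); which step gave RPKM, the annotation and strand use are not given in the sources used here. Of 23953 entries, 4 with repeated symbols were dropped, 27 carried date-like symbols, and 22596 matched GENCODE M21 by symbol and 920 by synonym. Depth was estimated from RPKM steps of 200 of 4369 single-transcript genes whose lengths gave mostly whole reads, so it is approximate.

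log2(RPKM + 0.5) of genes at 1 RPKM or more in at least 3 libraries was fitted with limma 3.58.1 (R 4.3.3; trended, 18 libraries, 6 groups, no covariate; 12 residual and 2.26 prior degrees of freedom), two-sided, and called at a Benjamini-Hochberg adjusted p under 0.05. The fit was tested on simulated data. Named genes were the 15 largest rises and falls among called, non-overlapping genes (no clone, predicted, small RNA or receptor segment symbols), in each list the 4 or fewer of smallest p, a Treg and lineage panel, seed-match genes by smallest p (5 in the direction of the match, 3 against it) and the loci. Marker genes are given as values; other genes, such as Itgae, Ccr9, Jun and Zfp36, were named after their values were seen. Members and gene lists were chosen with earlier results of these data known, so lists are described by counts and medians without a set test. Alternatives changed the pseudocount (0.1, 1), filter, scaling, libraries in the fit, replicate block, small RNA entries, single libraries and the seed match. The fit with miR-27 Tg library 1 alone was added after seeing the data. Python 3.11.15 with pandas 2.3.3 handled the tables. Some genes that the naming rule selects are not reported here.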

Additional observations from a re-analysis of the deposited data

How the results depend on the processing

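Of the counts of 1431 genes higher and 1261 lower, all stayed within 1.5 times at a pseudocount of 0.1 or 1, without the filter, with median-of-ratios scaling, with only the 6 libraries (1104 and 975) and without small RNA entries. The genes called changed more than these totals. Of the 2692 called genes, 1816 (67.5%) were called again with only the 6 libraries and 85.8% without the filter. Leaving out 1 library kept 64.6% (miR-23 Tg library 2) to 83.3% (miR-27 Tg library 1) of them. Leaving out 1 library gave 942 to 1497 higher and 825 to 1333 lower; the cause was not tested. With miR-27 Tg library 1 alone, 568 were higher and 308 lower, a fit with fewer libraries. With the replicate number as a replicate block, 1642 were higher and 1473 lower, and none of the 131 named calls ended. Same-numbered libraries of the 2 groups had correlations of -0.0114, -0.0377 and -0.0812, and 0 of 6 libraries correlated best with their own number. The number was therefore not taken as a pairing of these 2 groups. Over the 45 same-numbered pairs of the series the correlations ran from -0.167 to 0.188 (median 0.00397), with 6 over 0.1. Whether the number marks a spread shared across the series was not tested. Of the 131 named calls, 0 to 2 ended under the pseudocounts and scaling, 10 without the filter, 18 with only the 6 libraries, 5 to 24 when 1 library was left out, and 52 with miR-27 Tg library 1 alone; no named call changed sign in these settings. Among list counts not given above, only the 6 libraries gave 5 lower proximal T cell receptor genes (9 in the main analysis), 4 higher and 2 lower cell death genes (7 and 5), 4 higher antioxidant genes (9), 3 higher JAK, STAT and SOCS genes (5), and no lower integrin, CD28 family or respiratory chain gene (2 each). Without the filter 9 ribosomal protein genes (22), 2 TGF-beta genes (4) and 3 cell death genes (5) were lower. With the replicate block 4 CDK inhibitors (2) were higher. Under the alternatives that keep all 6 libraries, the other list counts that moved by over 1.5 times differed by 1 or 2 genes. Read counts were not used here, so precision rests on 3 libraries a group.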
